A study of Drosophila melanogaster with 2 samples.

Results

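The weaker distal peaks of Abd-B-GFP are the 3165 peaks that lie just below the reproducible set of the series, away from annotated promoters. They were chosen from the 30000 peaks of the pooled list by rank on the deposited signal value, from the rank after the last reproducible peak down to rank 10000, with the summit more than 1 kb from every annotated transcription start site (TSS) on the 6 main chromosome arms. Of the 4967 peaks in that rank range, 63.7% met the distance condition. The pooled signal value and the TSS distance therefore define these peaks and are given as description. At the upper limit the peak just inside had a signal value of 152.70 and the one just outside, at rank 5033, 152.71. At the lower limit rank 10000 had 87.60 and the peak after it 87.58. The summits nearest to the distance limit lay 1001 bp from a TSS inside it and 1000 bp outside it. The peaks above them are the 5033 peaks of the authors' list at their threshold of the irreproducible discovery rate (IDR), of which 2090 are distal. The deposited q-value was 0.05 or less for 979 of the 3165 weaker distal peaks (30.9%), and the median −log10 q-value was 0.961.

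The series holds 1 group of 2 biological replicates of whole Drosophila melanogaster embryos aged 4 to 20 h. Both replicates came from the same transgenic line, in which the Hox protein Abd-B carries GFP at its C-terminus, and the tagged protein was precipitated with an antibody against GFP. Whole embryos mix all tissues. The labels do not name the sequences that drive the fusion protein. Untagged or input values and read depth were not used here, since peak lists hold no counts.

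Abd-B is the Hox protein that gives the hindmost abdominal segments of the fly their identity, including structures such as the posterior spiracles. Most Hox homeodomains prefer a site with a TAAT core, whereas Abd-B and its vertebrate relatives prefer a TTAT core that they share with Caudal. In the text below an Abd-B site is TTTATTG or its alternative TTTATGG on either strand, the TAATTA site is the palindrome bound by many homeodomains, and a Caudal site is TTTATG. The second Abd-B form contains a Caudal site, so counts of both overlap.

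A set of 10 summit sequences shows what these peaks look like. In each, the summit base and 50 bases on either side are given from the dm6 reference, 5′ to 3′ on the + strand, with Abd-B and TAATTA sites on either strand in capitals. For the Abd-B site they are, on each of 4 arms, the highest ranked peak with a partner summit in both replicate lists and a site within 50 bp. These are peaks of Fas3 (a homophilic adhesion protein), vvl (a POU homeodomain factor), heca and Nrg (neuroglian, an adhesion protein).
Fas3 intron peak, chr2L:18328891-18328991, + strand: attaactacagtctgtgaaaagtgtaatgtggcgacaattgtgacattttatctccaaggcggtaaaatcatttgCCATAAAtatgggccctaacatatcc
vvl intergenic peak, chr3L:6845132-6845232, + strand: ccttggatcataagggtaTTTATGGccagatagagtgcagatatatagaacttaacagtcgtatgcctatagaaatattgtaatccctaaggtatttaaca
heca intron peak, chr3R:30339923-30340023, + strand: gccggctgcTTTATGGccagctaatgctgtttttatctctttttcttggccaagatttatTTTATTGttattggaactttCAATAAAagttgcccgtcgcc
Nrg intron peak, chrX:8542148-8542248, + strand: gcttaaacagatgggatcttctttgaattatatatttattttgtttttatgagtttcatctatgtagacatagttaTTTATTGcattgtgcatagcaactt
The sequence at heca holds both forms and 3 sites in all, and the sequences at Fas3 and vvl hold the form with the Caudal site. By the same rule for TAATTA the peaks belong to CG43774, CG13024, Prx3 (peroxiredoxin 3) and rdgA (a diacylglycerol kinase).
CG43774 intergenic peak, chr2L:4012232-4012332, + strand: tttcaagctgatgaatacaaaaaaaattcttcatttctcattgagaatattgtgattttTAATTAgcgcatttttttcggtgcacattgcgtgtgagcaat
CG13024 intron peak, chr3L:16825377-16825477, + strand: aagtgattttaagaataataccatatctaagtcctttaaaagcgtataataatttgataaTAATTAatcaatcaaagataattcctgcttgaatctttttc
Prx3 intergenic peak, chr3R:17551244-17551344, + strand: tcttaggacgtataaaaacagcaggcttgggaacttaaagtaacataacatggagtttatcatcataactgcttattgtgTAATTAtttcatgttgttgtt
rdgA intron peak, chrX:9004553-9004653, + strand: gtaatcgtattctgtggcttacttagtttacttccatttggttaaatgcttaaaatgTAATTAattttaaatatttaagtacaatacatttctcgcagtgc
Of the highest ranked weaker distal peaks with none of the 8 homeodomain motifs searched within 100 bp, 2 are shown, nearest to CG9411 and within Ten-a (a teneurin that guides axons and synapses).
CG9411 intergenic peak, chrX:14483899-14483999, + strand: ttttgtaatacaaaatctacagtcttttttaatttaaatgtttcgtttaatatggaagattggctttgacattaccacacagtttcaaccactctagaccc
Ten-a intron peak, chrX:12084512-12084612, + strand: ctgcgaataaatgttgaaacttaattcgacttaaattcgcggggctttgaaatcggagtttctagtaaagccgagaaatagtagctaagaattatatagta

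A peak of a replicate list was counted as a partner when its summit lay within 100 bp of the pooled summit. Replicate 1 held a partner for 2485 of the 3165 weaker distal peaks (78.5%), against 1976 of the 2090 distal IDR peaks (94.5%), and replicate 2 for 2914 (92.1%), against 2042 (97.7%). Over all pooled distal peaks the shares were 58.7% in replicate 1 and 69% in replicate 2. Both lists held a partner for 2265 of the weaker distal peaks (71.6%, 95% Wilson interval 70.0 to 73.1%), against 92.4% of the distal IDR peaks and 37.6% of all pooled distal peaks. The pooled list was made from both replicates, so these shares are a description and were not tested. Of the remainder, 649 weaker distal peaks had a partner in replicate 2 only, 220 in replicate 1 only and 31 in neither list. Between the 1000-rank bins, the share with a partner in both lists was 81.3% for ranks 5001 to 6000 and 62.6% for ranks 9001 to 10000, as the plot of partner shares by rank shows.

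**Figure D1:**
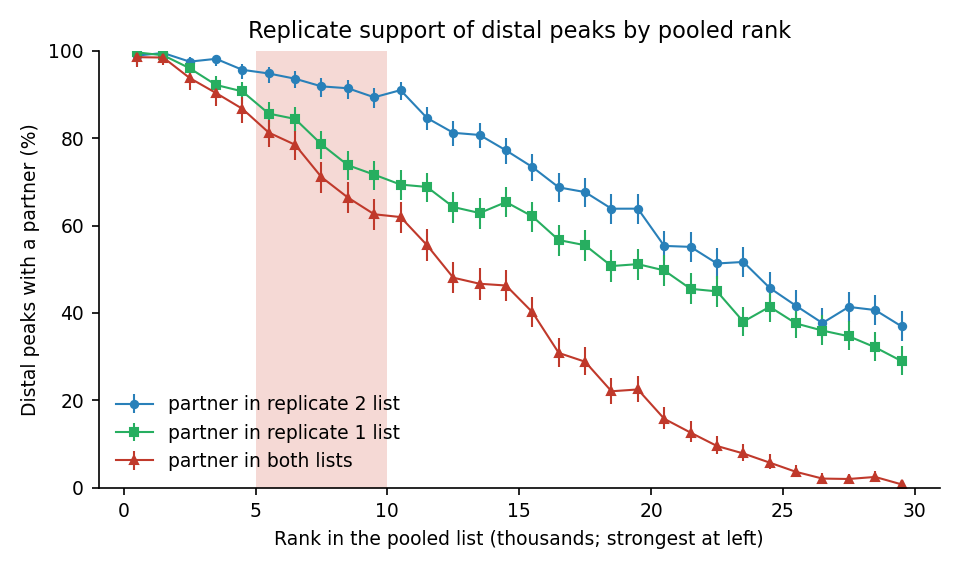
Share of distal peaks (vertical axis, percent) with a partner summit within 100 bp in replicate 2, replicate 1 or both lists, in bins of 1000 pooled ranks (horizontal axis, in units of 1000, strongest at left); bars are 95% Wilson intervals and the shaded band marks the weaker distal peaks. The replicate 2 share was 94.8% at ranks 5001 to 6000 and 89.3% at ranks 9001 to 10000, while the replicate 1 share was 85.6% at ranks 5001 to 6000 and 71.7% at ranks 9001 to 10000.

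Partners were also ranked differently by the replicates. The median rank of the partner was 8629 in replicate 1 and 7781 in replicate 2 for the weaker distal peaks, against 3111 and 2825 for the distal IDR peaks. Replicate 2 placed 62.3% of the weaker distal peaks at the same range of its own ranks, and replicate 1 placed 35.4% there. In replicate 1 a further 11.2% ranked within the top 5033, and in replicate 2 7.46% did. Where a partner existed, its summit lay a median of 10 bp away in either list.

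The replicate 1 share depended on base composition. Among weaker distal peaks with at most 30% GC within 100 bp of the summit, 276 of 425 had a replicate 1 partner (64.9%, 60.3 to 69.3%), and among those over 50% GC 301 of 336 had one (89.6%, 85.9 to 92.4%). Replicate 2 ran the other way, with 95.1% and 89.9% in the same classes. The AT-rich class was the stronger one in the pooled list, with a median rank of 7200 at up to 30% GC and 8405 over 50% GC. For distal IDR peaks the replicate 1 share was 93.0% at up to 30% GC and 97.5% over 50% GC. Whether depth or library preparation plays a part in this was not tested.

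**Figure D2:**
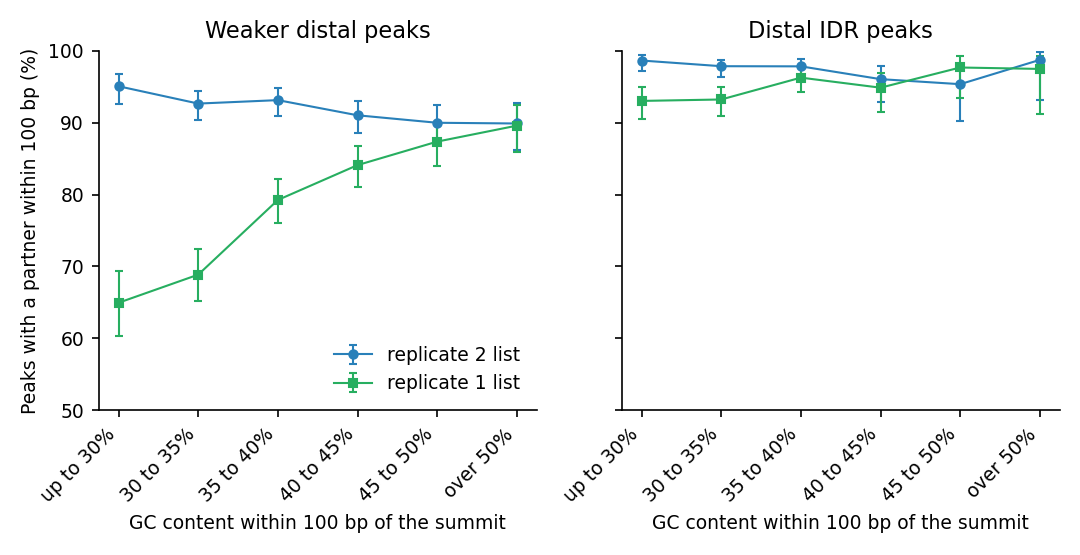
Share of peaks with a partner within 100 bp (vertical axis, percent, from 50 to 100) in the replicate 2 and replicate 1 lists, by GC content within 100 bp of the summit (horizontal axis), for weaker distal peaks (left) and distal IDR peaks (right); bars are 95% Wilson intervals. In the weaker distal peaks the replicate 1 share ran from 64.9% in the lowest class to 89.6% in the highest, where both replicates meet.

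Weaker distal summits were less AT-rich than those of the IDR list, and the direction of the GC difference from their surroundings depended on the replicate. GC content averaged 39.3 ± 8.09% within 100 bp of the summit of the weaker distal peaks and 35.2 ± 7.13% for distal IDR summits (SD over 3165 and 2090 peaks). In flanks 400 to 500 bp away it was 41.6% and 41.9%. The summit was below its own flanks in 1844 weaker distal peaks and above in 1321 (exact sign test, two-sided, p = 1.41e-20), a mean difference of -2.34 points against -6.74 points for distal IDR peaks. At the same ranks of each replicate's own list, distal peaks differed from their flanks by 2.06 points in replicate 1 (exact sign test, p = 5.87e-20) and by -4.31 points in replicate 2 (p = 4.73e-70). The replicates thus showed opposite signs at these ranks, while ranks 1 to 5033 were below their flanks in both lists, by -3.30 points in replicate 1 and -7.90 points in replicate 2. In the pooled list the next distal ranks, below 10000 and down to 15000, averaged 42.8% at the summit and 41.1% in the flanks, so the weaker distal peaks stand where the sign turns. The 509 weaker distal peaks with no soft-masked base at the summit also had the opposite sign, 3.41 points, but they were chosen on the summit and not on the flanks. Peaks of 1 list share their libraries, and these p-values describe the lists and not a spread between embryos.

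**Figure D3:**
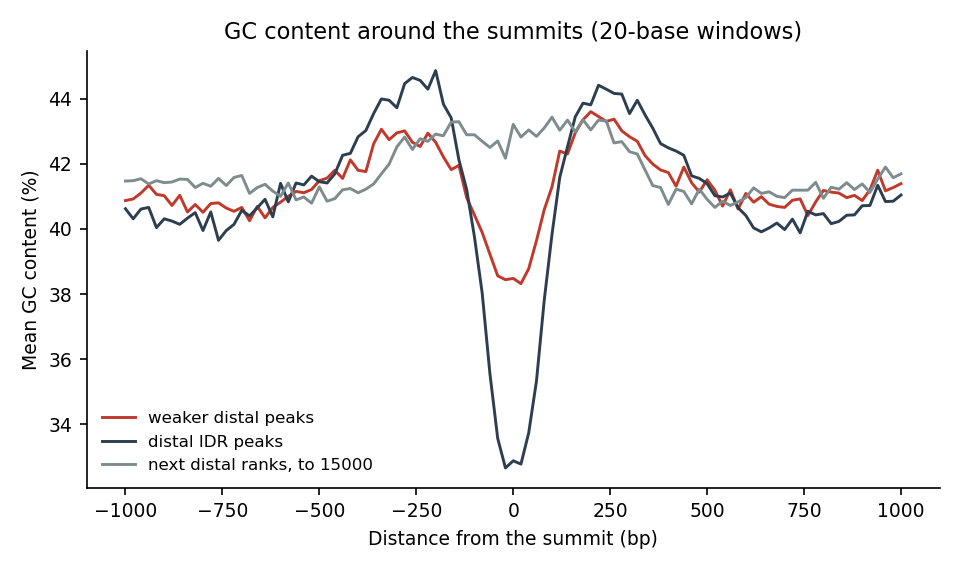
Mean GC content (vertical axis, percent) in windows of 20 bases by distance from the summit (horizontal axis, bp) for weaker distal peaks, distal IDR peaks and the next distal ranks, down to 15000. At the summit the mean was 38.5% in weaker distal peaks, against 32.9% in distal IDR peaks and 43.2% in the lower ranks, with a rim of higher GC near 200 bp on both sides of the weaker distal and IDR peaks.

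Of the 8 homeodomain motifs, the Abd-B site had the highest ratio of summits to flanks in the weaker distal peaks. An Abd-B site lay within 100 bp of 815 of the 3165 summits (25.8%, 24.3 to 27.3%), while 513 peaks had one in their flanks (16.2%). The ratio of these shares was 1.59 (adjusted exact p = 1.61e-20 over 14 motifs in an exact McNemar test). Of all distal windows of the same length 13.8% held one, or 15.2% when windows were weighted to the GC classes of the weaker distal peaks. The ratio was 1.515 in the replicate 1 list and 1.497 in the replicate 2 list at the same ranks (adjusted exact p = 1.14e-15 and 2.06e-14). Sites crowded towards the summit, with 1.67 matches per kb within 25 bp and 0.904 per kb at more than 400 and up to 500 bp. The Abd-B site occurred once in 675 of the peaks and at least 2 times in 140.

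Caudal sites were present at 35.1% of weaker distal summits and in 27.2% of flanks (ratio 1.29, adjusted exact p = 4.38e-11). Of all distal windows 21.4% held one, or 23.5% when windows were weighted to the GC classes of the weaker distal peaks. This motif passed in both replicate lists too, with ratios of 1.23 in replicate 1 and 1.21 in replicate 2. The NK-2 class site CACTTAA, bound by homeodomain proteins such as Tinman and Bagpipe, lay at 6.32% of summits and in 4.42% of flanks (ratio 1.43, adjusted exact p = 0.00528). This site was in 4.1% of all distal windows, or 4.46% with the same weighting. In the replicate 1 list its ratio was 0.888 (adjusted exact p = 0.421) and in the replicate 2 list 1.57 (adjusted exact p = 0.000367). The NK-2 difference also did not pass for peaks with a q-value of 0.05 or less, the q-value limit (adjusted exact p = 0.23), with sites within 50 bp (0.213) or 200 bp (0.14), or in peaks with no soft-masked base at the summit (0.572).

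The TAATTA palindrome did not pass over all weaker distal peaks. It lay at 493 weaker distal summits (15.6%, 14.4 to 16.9%) and in the flanks of 502 (15.9%, ratio 0.98, adjusted exact p = 0.845). Of all distal windows 13.1% held it, or 15.2% when windows were weighted to the GC classes of the weaker distal peaks. In the weaker distal peaks with no soft-masked base at the summit it was less frequent at summits than in flanks (ratio 0.485, adjusted exact p = 5.74e-05). That choice was made on the summit and not on the flanks, so the 2 sides are not alike and no conclusion is drawn from this ratio. At distal IDR summits it lay in 19.4%, against 13.3% of their flanks (ratio 1.47, adjusted exact p = 4.47e-07). Joint sites for Hox proteins and the cofactor Exd, TGATTTAT for posterior and TGATTAAT for central Hox proteins, were at 2.84% and 1.58% of weaker distal summits, against 2.91% and 2.02% of flanks, and neither passed. Sites of the K50 class (TAATCC), of Homothorax (TGACAG), of Zelda (CAGGTA), of GAGA factor (GAGAG), of DREF (TATCGATA) and of GATA factors (AGATAA), CA repeats (CACACACA) and the E-box CAGCTG did not pass either. Some of these calls changed with the list or the setting. In the replicate 2 list alone, Homothorax sites (ratio 0.732), CA repeats (0.735) and E-boxes (0.729) were less frequent at summits than in flanks (adjusted exact p from 0.00134 to 0.00467), and the E-box also with the q-value limit (ratio 0.551, adjusted exact p = 0.000587). GATA sites passed in opposite directions, with a ratio of 0.784 in replicate 1 (adjusted exact p = 0.00344) and 1.24 in replicate 2 (adjusted exact p = 0.00357). K50 sites were less frequent at summits with flanks 900 to 1000 bp away (ratio 0.693, adjusted exact p = 0.00111), with sites within 200 bp (ratio 0.727, adjusted exact p = 2.77e-05) and at over 500 bp from every TSS (ratio 0.780, adjusted exact p = 0.0376). Homothorax sites passed with the farther flanks too (ratio 0.785, adjusted exact p = 0.0153), and GAGA sites within 200 bp (ratio 1.12, adjusted exact p = 0.00118). At least 1 of the 8 homeodomain motifs stood within 100 bp of 1961 weaker distal summits (62.0%), against 59.9% of distal IDR summits and 49.2% of all distal windows.

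Set against distal IDR summits, the weaker distal summits held more Abd-B sites and fewer TAATTA sites. The Abd-B shares were 25.8% in weaker distal peaks and 21.3% in distal IDR peaks (Fisher's exact test, two-sided, adjusted exact p = 0.00227), and the TAATTA shares 15.6% and 19.4% (adjusted exact p = 0.00227). For TAATTA the difference held in each replicate's own list, with 14.1% at these ranks and 17.3% at ranks 1 to 5033 in replicate 1 (adjusted exact p = 0.0129), and 16.2% and 20.1% in replicate 2 (adjusted exact p = 0.00586). For the Abd-B site the shares were 23.9% and 20.3% in replicate 2 (adjusted exact p = 0.0152), but 24.3% and 23.8% in replicate 1 (adjusted exact p = 0.92). Caudal, Homothorax, CA repeat and E-box sites were also more frequent in the weaker distal peaks, at 35.1%, 7.39%, 5.72% and 7.36% against 31.9%, 5.45%, 4.07% and 5.31% (adjusted p from 0.0168 to 0.0369). Of these, the Caudal and Homothorax differences passed in neither replicate list alone, the E-box difference only in that of replicate 1, and the CA repeat difference in both. At distal IDR summits, Homothorax, CA repeat and E-box sites were less frequent than in flanks (ratios 0.637, 0.486 and 0.649). In the exact McNemar test the adjusted exact p ran from 8.63e-08 to 0.000416. At weaker distal summits these ratios over flanks were 0.842, 0.928 and 0.826 and did not pass. With the q-value limit the TAATTA, Caudal, Homothorax, CA repeat and E-box differences did not pass (adjusted exact p from 0.166 to 1), and with sites within 200 bp those of TAATTA, Homothorax, CA repeats and E-boxes did not (adjusted exact p from 0.0623 to 0.962). At over 2 kb from every TSS the Caudal, Homothorax and CA repeat differences did not pass (adjusted exact p from 0.0657 to 0.083), nor the Caudal difference at over 500 bp (adjusted exact p = 0.101).

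By form, the Abd-B site that contains a Caudal site differed more between weaker distal and distal IDR peaks than the other form. TTTATGG stood at 452 weaker distal summits (14.3%), against 200 distal IDR summits (9.57%), while the form TTTATTG stood at 431 (13.6%), against 270 (12.9%). Relative to flanks the ratio of TTTATGG was 1.85 in weaker distal peaks, against 1.36 in distal IDR peaks and 1.47 at the next ranks, down to 15000. In the 1000 strongest pooled peaks 4.04% of distal summits held this form, and in each bin from rank 5001 to rank 10000 between 13.4% and 14.8% did. The forms were split after their values had been seen, and these shares carry no test.

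**Figure D4:**
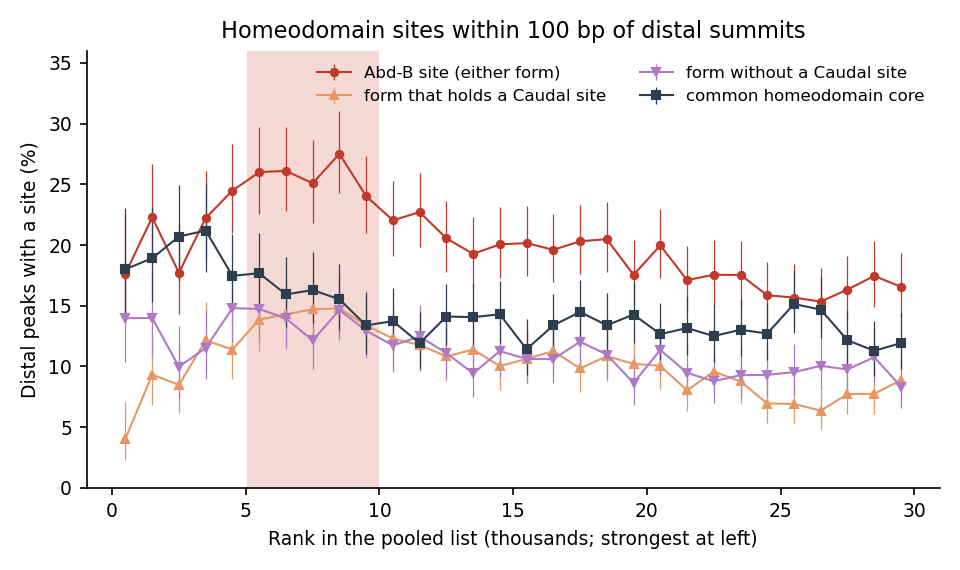
Share of distal summits (vertical axis, percent) with a homeodomain site within 100 bp, in bins of 1000 pooled ranks (horizontal axis, in units of 1000); red circles mark either Abd-B form, and bars are 95% Wilson intervals. In the shaded band of the weaker distal peaks the Abd-B share lay between 24.03% and 27.51% per bin, against 17.6% in the strongest 1000 peaks and 16.6% in the last 1000.

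The Abd-B share of weaker distal summits was highest at 40 to 45% GC, whereas that of all distal windows was highest at up to 30% GC and lowest over 50% GC. At 40 to 45% GC 204 of 635 weaker distal summits held a site (32.1%, 28.6 to 35.9%), against 23.3% of distal IDR summits, 25.9% of distal summits at the next ranks, down to 15000, and 14.5% of distal windows. Over 50% GC the shares were 25.6%, against 29.1%, 14.3% and 5.36%. At up to 30% GC they were 17.2%, against 22.9%, 18.8% and 21.2%. In a comparison added after these values had been seen, Fisher's exact test adjusted over the 6 GC classes found more sites in weaker distal than in distal IDR peaks at 30 to 35% GC (22.8% and 16.0%, adjusted exact p = 0.0187) and at 40 to 45% GC (adjusted exact p = 0.0278). Against the next ranks it found more at 40 to 45% (adjusted exact p = 0.022), at 45 to 50% (31.2% and 20.3%, adjusted exact p = 6.47e-05) and over 50% GC (adjusted exact p = 6.47e-05). For TAATTA none of the 6 classes passed in either comparison, the smallest unadjusted p values being 0.424 against distal IDR peaks and 0.196 against the next ranks.

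**Figure D5:**
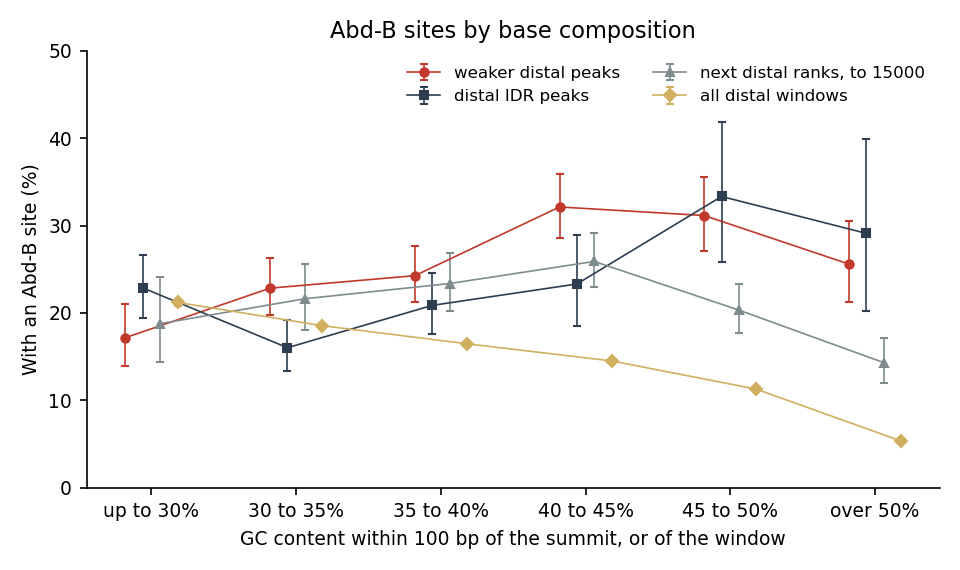
Share with an Abd-B site (vertical axis, percent) by GC content within 100 bp of the summit (horizontal axis) in weaker distal peaks, distal IDR peaks, the next distal ranks and all distal windows; bars are 95% Wilson intervals. The window share fell from class to class to 5.36% over 50% GC, whereas 25.6% of weaker distal summits held a site there.

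Abd-B sites were also compared between weaker distal peaks with a partner in both lists and those with fewer. The shares were 612 of 2265 peaks with both (27.02%) and 203 of 900 with fewer (22.56%) (ratio 1.20, adjusted exact p = 0.0713), and those of Caudal sites 36.7% and 31.0% (adjusted exact p = 0.0316), the only motif of the 14 that passed. In the replicate 1 list at the same ranks, Abd-B sites stood at 26.2% of distal summits with a replicate 2 partner and 21.9% of those without (adjusted exact p = 0.0149). In the replicate 2 list they stood at 26.8% of distal summits with a replicate 1 partner and 20.2% of those without (adjusted exact p = 0.000222). The Caudal difference passed in the replicate 1 list (adjusted exact p = 0.00261) and not in the replicate 2 list (adjusted exact p = 0.17). In the pooled list it did not pass under 8 of the 9 alternatives other than the replicate lists, with adjusted exact p from 0.0509 to 0.933, while the Abd-B difference passed at over 500 bp from every TSS (adjusted exact p = 0.0236).

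A search of the 2729 words of 8 letters that stood at 40 or more weaker distal summits gave further sequences concentrated there. Words were ordered by comparing their counts at summits and in flanks of the weaker distal peaks. Neither the difference nor the ratio of the counts alone gives this order, and the counts are a description with no test. TTTTATGG, the extended Abd-B form, was at 249 summits and in the flanks of 91. The words TCGTAAAA and, overlapping it, GTCGTAAA are known as preferred sites of vertebrate posterior Hox proteins. At least 1 of them stood at 145 summits (4.58%), and 37 peaks had one in the flanks (1.17%), against 3.11% and 1.87% in distal IDR peaks and 1.36% of all distal windows. Peaks with these words had a replicate 1 partner in 89.0% of cases and averaged 41.9% GC. Counted together, an Abd-B site or one of these words stood at 902 weaker distal summits (28.5%).

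First in that order was CACTGAGA (ratio 6.44), with which ACACTGAG, CTCAGTGC (ratio 6.91) and TCAGTGCA overlap. At least 1 of these 4 words stood at 210 weaker distal summits (6.64%), against 44 with one in the flanks (1.39%), which is a ratio of 4.77. The share was 10.6% at distal IDR summits (ratio 6.50), 4.46% at the next ranks (ratio 2.54) and 1.89% of all distal windows. In the replicate lists at the same ranks the ratio was 2.50 in replicate 1 and 4.69 in replicate 2. These peaks averaged 35.8% GC. An Abd-B site was within 100 bp of the summit in 29 of the 210 (13.8%), against 25.8% of all weaker distal peaks and 13.8% of all distal windows. No factor is assigned to these words here.

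Most weaker distal summits lay in introns. The summit base was intronic in 1976 peaks (62.4%), against 67.8% of distal IDR peaks (Fisher's exact test, adjusted exact p = 0.000228), and 47.3% of all distal bases are intronic. It was intergenic in 1087 peaks (34.3%), against 29.2% (adjusted exact p = 0.000228), which in the replicate 1 list alone did not pass (adjusted exact p = 0.159). Coding sequence held 20 summits (0.632%), against 3 of the distal IDR peaks (0.144%, adjusted exact p = 0.0121) and 13.9% of distal bases. The coding share differed between the replicate lists at these ranks, with 3.86% in replicate 1 (adjusted exact p = 2.95e-19 against ranks 1 to 5033 of that list) and 0.417% in replicate 2 (adjusted exact p = 0.107). The pooled difference also did not pass at over 2 kb from every TSS (adjusted exact p = 0.0807) or for peaks with a q-value of 0.05 or less (adjusted exact p = 0.816). Other exons held 82 (2.59%) and 2.78% (adjusted exact p = 0.726). Annotated transposable elements held 7 summits (0.221%), against 7.41% of distal bases. The median distance to the nearest TSS was 4394 bp, against 3816 bp, and 654 weaker distal peaks lay more than 10 kb from any TSS.

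Weaker distal peaks lay near stronger ones. An IDR summit was within 5 kb of 1349 of them (42.6%), whereas 21.6% of distal bases are that close to one, and another weaker distal summit was within 5 kb of 1395 (44.1%), against 19.3% of distal bases. By arm, their density was 3.42 per 100 kb of distal sequence on 3L, 3.38 on 2L, 3.11 on 3R, 2.95 on X and 2.75 on 2R, with 1 peak on the whole of chromosome 4. Distal IDR peaks were densest on X, at 2.49 per 100 kb.

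Each peak was assigned to the protein-coding gene whose body held it, or else to the one with the nearest TSS. The 3165 peaks fell to 1591 of 13945 protein-coding genes (11.4%), of which 701 also had a distal IDR peak. These genes were long, with a median span of 13599 bp, against 2166 bp over all protein-coding genes, and 115 genes with 5 or more peaks took 25.1% of the peaks. Because long genes collect more peaks, counts below are given beside the density per 100 kb of distal sequence within gene bodies, which was 2.96 over all protein-coding genes. For distal IDR peaks that density was 2.11. The gene lists describe the surroundings of the peaks and were not tested.

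The highest ranked weaker distal peak, at rank 5037, lay in an exon, outside coding sequence, 11788 bp from the nearest TSS of its host gene ctp, a dynein light chain. Its partners had rank 4672 in replicate 1 and 6608 in replicate 2. Those nearest to or within CG9411, CG6154, Ten-a and vvl had partners at ranks 10274, 13059, 11566 and 7270 in replicate 1 and at 4209, 4801, 4207 and 4583 in replicate 2. An intergenic peak by Ldh, lactate dehydrogenase, was at 25608 in replicate 1 and 3943 in replicate 2. Intronic peaks of Shawl, a potassium channel, and of fz2, a Wnt receptor, had no partner in replicate 1 and stood at 4507 and 4924 in replicate 2. In replicate 1 the peaks of PRAS40, a TOR pathway component, and of Rilpl stood higher, at 3821 and 4224, against 6434 and 5726 in replicate 2. Those of mam, the Notch coactivator Mastermind, and of nkd, a Wnt feedback inhibitor, were close in both, at 5259 and 5672 in replicate 1 and at 4612 and 5647 in replicate 2. In replicate 2 all 12 of these peaks had a partner, at ranks from 3943 to 6608, and in replicate 1 10 of them had one, at ranks from 3821 to 25608.

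The bithorax complex (Ubx, abd-A and Abd-B) carried 40 weaker distal peaks between the outer ends of Ubx and Abd-B (chr3R:16656623-16972236, dm6), beside 34 distal IDR peaks. That is 15 per 100 kb of distal sequence, against 3.09 over the genome. Of the 40, 23 had a partner in both lists, a lower share than the 71.6% of all weaker distal peaks. MSAmiP, a micropeptide gene between abd-A and Abd-B, had 18 weaker distal peaks, the most of any gene, and Abd-B itself had 13, Ubx 5 and abd-A 2. The Antennapedia complex genes had 2 at Antp and 1 each at Dfd and pb, and none at Scr or lab. In all, 6 of the 8 Hox genes had at least 1.

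After MSAmiP, the genes with most weaker distal peaks were fz2 with 17, kirre (an adhesion protein of myoblast fusion) with 16, luna (a Krüppel-like factor) with 14, and corto (a partner of Polycomb and trithorax group proteins) and plh with 13 each. SKIP and CG43759 had 11 each, and Ten-a, pum (the translational repressor Pumilio) and sbb (a transcriptional corepressor) 10 each. A further 3 genes, dally and hth among them, also had 10. The same ranks of the replicate lists gave fz2 13 peaks in replicate 1 and 15 in replicate 2, and kirre 10 and 24. In fz2 the density was 19.9 per 100 kb and 5 distal IDR peaks were assigned. The span of kirre, 394149 bp, held 19 weaker distal peaks, a density of 5.64, and 21 distal IDR peaks. To kirre itself 16 weaker distal and 19 distal IDR peaks were assigned. The body of corto held 4 of its 13, and the other peaks lay outside protein-coding genes and closest to its TSS.

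Signalling genes of the embryo had dense weaker distal peaks. Of 25 Wnt and segment polarity genes 15 had at least 1, at 10.4 per 100 kb, led by fz2 and by nkd with 6. Of 19 EGFR and FGF pathway genes 15 had one, at 9.58 per 100 kb, led by the ligands vn (an EGFR ligand) and bnl (an FGF ligand) with 6 each. BMP pathway genes had them in 6 of 16, at 8.93 per 100 kb, with 10 at dally, a glypican, and 4 at sog, a BMP antagonist. Notch pathway genes had them in 6 of 14, at 5.23 per 100 kb, with 7 at mam and 3 at kuz, the protease that cleaves Notch. In these Wnt genes weaker distal peaks outnumbered distal IDR peaks in gene bodies by 44 to 22, and in the BMP genes they numbered 21 and 22. Over all peaks there were 1.51 weaker distal peaks for each distal IDR peak. Distal IDR peaks were also dense in these lists, against 2.11 per 100 kb over all protein-coding genes. They had 5.21 per 100 kb in the Wnt, 6.68 in the EGFR and FGF, 9.355 in the BMP and 3.49 in the Notch list.

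Lists of regulatory genes were a further group, and whether their genes act with or below Abd-B was not tested. Of 9 genes listed as Hox cofactors and trunk zinc finger genes, 6 had a weaker distal peak, with 10 at hth, the Hox cofactor Homothorax. The list also counts homeobox genes that are neither, among them mirr with 6. The density of the list was 6.04 per 100 kb. Among 14 genes of posterior spiracle formation, a structure that Abd-B specifies, 9 had one, at 5.55 per 100 kb, with 6 at ems (a homeodomain factor), the second highest count of the list. Homeobox genes outside the Hox complexes had one in 38 of 73, led by hth and by Lim1 with 9, at 4.36 per 100 kb. Nuclear receptor and ecdysone genes had one in 11 of 23, at 5.75 per 100 kb, with 6 at ftz-f1 and 5 at Eip75B. BTB zinc finger genes had one in 8 of 16, at 4.21 per 100 kb, with 9 at bab1, which acts in abdominal pigmentation of the adult, and 6 at psq. Distal IDR peaks were denser than weaker distal peaks in the nuclear receptor and ecdysone list (7.42 per 100 kb) and in the Hox cofactor list (8.83). They were less dense in the spiracle (4.965), homeobox (3.09) and BTB (2.81) lists.

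The densities of the gene lists of the nervous system lay on both sides of the 2.96 per 100 kb of all genes. The bHLH genes, given beside them, are a protein family and not a list of nervous system genes. Axon guidance, synaptic specificity, ion channel and temporal factor genes were long, with median spans of 32525 to 38460 bp, whereas the medians were 8359 bp for glial and 2359 bp for bHLH genes. Axon guidance genes had a weaker distal peak in 26 of 41, at 4.20 per 100 kb, with 10 at Ten-a and 9 at Sema1a, a semaphorin. Cell surface genes of synaptic specificity had one in 14 of 36 but only 2.17 per 100 kb, led by kirre and by rst with 3. Ion channel genes had one in 16 of 34, at 1.75 per 100 kb, with 4 at KCNQ and 3 at GluClalpha. Their bodies held 22 weaker distal peaks, against 3 distal IDR peaks. Neuroblast temporal factors had one in 7 of 12, at 1.83 per 100 kb, led by chinmo with 3 and D with 2. Glial genes had one in 4 of 13, at 3.45 per 100 kb, with 2 at pnt and 1 at sty. The bHLH genes had one in 6 of 42 (14.3%, 6.72 to 27.8%), at 4.74 per 100 kb, with 4 at hry and 3 at twi. That interval includes the 11.4% of all genes. Distal IDR peaks were denser than weaker distal peaks in the glial and bHLH lists, at 6.04 and 5.60 per 100 kb. In the other lists named here they were less dense.

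Muscle and heart genes had a weaker distal peak in 13 of 30, at 4.45 per 100 kb, with 4 at Doc1 and 4 at Zasp52. Polycomb and trithorax group genes had one in 5 of 28 (17.9%, 7.88 to 35.6%), at 4.37 per 100 kb, with 6 at psq and 5 at Su(z)2. That interval includes the 11.4% of all genes. Distal IDR peaks were denser in the Polycomb and trithorax list, at 5.83 per 100 kb, and less dense in the muscle and heart list, at 2.22. Of the 4 cell death genes of the reaper region, grim had 5 and rpr 4, all outside the bodies of protein-coding genes. Short genes of large families had one in 16 of 179 chemoreceptor genes (8.94%), 12 of 110 cuticle protein genes (10.9%) and 4 of 92 cytoplasmic ribosomal protein genes (4.35%), beside 11.4% of all genes. The ribosomal protein genes had a median span of 1315 bp. Their bodies held 12997 bp of distal sequence and 0 peaks, which is too little sequence to read a density from. The bodies of the cuticle genes held 5 peaks, at 4.52 per 100 kb, which is above the density over all genes. The chemoreceptor gene bodies held 0 peaks in 233077 bp of distal sequence, with Or67d (6 peaks nearby) and Gr10a (2) as the most frequent nearest genes. Cpr35B had 4 and Osi6 had 3 among cuticle genes, and RpL37-1 and RpS26 had 1 each.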

How the data were processed

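Abd-B-GFP ChIP-seq peak lists of 2 biological replicates and their pooled and IDR lists were used as deposited, on dm6 per the labels. The authors' lists give a signal value, used only for ranking, and a −log10 q-value, which the authors deposited per peak. Each replicate list was called against a control, per the deposited descriptions; no source used here names the aligner or the caller. No depth is known, and intervals cover the counting of peaks only. TSSs, exons and genes came from Ensembl release 115 (BDGP 6.54) without transposable element starts, and sequence from the RefSeq assembly. The members, motifs and gene lists were chosen with earlier results of these data known. Motifs were counted on both strands by their midpoint. Tests were exact McNemar, Fisher and sign tests with Benjamini-Hochberg adjustment over 14 motifs or over the feature classes (threshold 0.05). Alternatives were each replicate list alone, other TSS, partner, motif and flank distances, a q-value limit, masking and other gene assignments. Starts of transposable elements as TSSs and the tests within GC classes were added after seeing the data. Named genes are those of the 12 highest ranked peaks, the 12 with most peaks and up to 2 per list for 22 lists. The functions were tested on simulated data. Tests ran in scipy 1.17.1 under Python 3.11.15, with pandas 2.3.3 and numpy 2.4.6 for tables and matplotlib 3.10.9 for figures.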

Additional observations from a re-analysis of the deposited data

How the results depend on the processing

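The intron share kept its direction and its side of the threshold under the 6 alternatives run for it. The share of weaker distal peaks with a partner in both lists was 51.1% for partners within 50 bp, 87.1% within 250 bp, 88.8% by interval overlap and 80.7% for peaks with a q-value of 0.05 or less; leaving out a replicate leaves no such share. The GC difference between summit and flanks ran from -4.31 to 2.06 points over the single replicate lists and was 3.41 points in peaks without soft-masked bases, a choice made on the summit and not on the flanks. The number of motifs that passed against flanks was 3 to 7 in the replicate lists and 5 with flanks 900 to 1000 bp away. Against distal IDR peaks 3 to 4 passed in the replicate lists, 3 at over 2 kb from every TSS, 1 with the q-value limit and 2 with sites within 200 bp. By partner number, 1 to 5 passed in the replicate lists and 2 at over 500 bp from a TSS. By Fisher's exact test 0 passed at over 2 kb (2 at an unadjusted p under 0.05), with the q-value limit (1), with partners within 50 bp (0), within 250 bp (3) or by overlap (4), with sites within 50 bp (3) or 200 bp (3), and with transposable element starts as TSSs (3). The number of genes was 731 with the q-value limit and 2637 with the nearest TSS on both sides. Ratios over flanks ran from 0.888 to 1.57 for NK-2 and from 0.784 to 1.24 for GATA sites over the replicate lists, ratios over distal IDR peaks from 0.997 to 1.09 for Caudal, and the CA repeat ratio was 0.93 within 200 bp. The causes of these changes were not tested. No paired analysis was possible because there was 1 group.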
